A study of Mus musculus with 12 samples.

Results

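The comparison described here sets wild-type (WT) mouse macrophages treated with interferon-gamma (IFN-γ) directly against WT macrophages treated with interleukin-4 (IL-4), across all genes with enough counts to be tested. It holds 4 of the 12 RNA-seq libraries of the series, 2 per cytokine, and it uses no untreated library in the contrast itself. The cells were bone marrow-derived macrophages, which are grown in culture from marrow precursors. They received 100 U/mL IFN-γ or 20 ng/mL IL-4 for 24 h. The other 8 libraries are untreated WT cells and untreated, IFN-γ-treated and IL-4-treated cells labelled CKO, 2 of each. Strain, sex and age are not in the labels, nor is the gene that CKO stands for, although IRF8, a transcription factor, is named in the title of the series. Whether the 2 libraries of a group are 2 animals is not stated either. Each p-value sets a difference against the spread between libraries of the same group, shared over all 6 groups of the fit. That spread may be technical.

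IFN-γ, made by T cells and natural killer cells, signals through its receptor, JAK1 and JAK2 to STAT transcription factors, and the interferon regulatory factors that they induce extend the response to antigen presentation and killing of intracellular microbes. IL-4, made by type 2 T cells, basophils and eosinophils, signals through IL-4Rα, JAK1 and JAK3 to STAT6, which in macrophages drives lectins, arginase and genes of tissue repair. Macrophages exposed to these cytokines have long been used as the poles of classical and alternative activation.

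Levels are CPM, the usual measure of a gene's read counts relative to its library's total, here with edgeR's TMM scaling, and library 1 is given before library 2 throughout. A log2 fold change is IFN-γ over IL-4, so a positive value means higher after IFN-γ, and it is given ± an approximate standard error (SE). Each group has n = 2 libraries. A gene was called where edgeR's quasi-likelihood test gave a Benjamini-Hochberg adjusted p under 0.05 over the 16292 genes tested, out of 48440 in the table. In bulk RNA, fewer cells of a type and less RNA per cell cannot be told apart.

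The 4 libraries held 21287725 to 29842151 counts, within the range of 21287725 to 32717379 over all 12. Macrophage genes were present in each of them: 10 macrophage markers summed, as CPM of the library total, to 8975 and 8779 CPM after IFN-γ and to 10800.0 and 9706 CPM after IL-4. Most of each sum was Lyz2, at 5910 and 5635 CPM after IFN-γ and 7464 and 6468 CPM after IL-4. Cd163 was the lowest, at 1.05 to 3.79 CPM. Of the 10, 2 were called higher after IFN-γ and 3 after IL-4. Markers of erythroid cells and megakaryocytes summed to 106.6 to 160.6 CPM with Gp9 at 0, and endothelial markers to 18.8 to 30.9 CPM. Of the T and NK cell markers, Cd3e, Cd3d, Cd3g, Ncr1 and Gzmb had no count in any of the 4, and the summed levels of the T and NK cell, B cell and stromal markers were at most 2.05 CPM in any of them. Irf8 was present in every library, at 513 and 502 CPM after IFN-γ and 70.9 and 65.7 CPM after IL-4 in WT, and at 1204 and 1173 CPM and 169 and 139 CPM in the libraries labelled CKO, so a loss of the whole Irf8 transcript is not seen in the latter. Gm42418, which overlaps ribosomal RNA sequence, took 0.753% of the counts of IFN-γ library 1 (95% Wilson interval 0.75 to 0.757, counting error only) and 0.105% to 0.174% of the other 3 libraries. The IFN-γ libraries also differed more from each other than the IL-4 libraries did. Among 9355 well-expressed genes, 70 differed at least 2-fold between the IFN-γ libraries, 56 of them higher in library 2, and 10 did so between the IL-4 libraries. The first principal component held 87.5% of the variance of the 4 libraries and separated the cytokines.

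The cytokines left different levels of many genes, about equally in both directions. Of the 16292 genes, 4562 were called (28%): 2310 were higher after IFN-γ (14.2%) and 2252 were higher after IL-4 (13.8%). Counts of called list members below are to be read against these shares. With a fold of at least 2 required beside the adjusted p, 1148 were higher after IFN-γ (7.05%) and 949 after IL-4 (5.82%). The median log2 fold change of all genes tested was -0.02, and 10674 genes (65.5%) had libraries that did not overlap between the cytokines, so non-overlap alone says little here. The large differences leaned to the IFN-γ side: 185 genes were at least 16-fold higher after IFN-γ and 118 after IL-4, and 98 and 52 were at least 64-fold higher. The 1148 genes took 11.9% and 11.7% of all counts after IFN-γ and 2.59% and 2.6% after IL-4. The 949 genes took 8.42% and 8.26% after IL-4 and 2.38% and 2.23% after IFN-γ. With no count at all after IL-4 there were 40 of the genes called higher after IFN-γ and with none after IFN-γ 38 of those called higher after IL-4. Without IL-4 library 1 the number called higher after IL-4 was 1416, and without IL-4 library 2 it was 1412.

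**Figure D1:**
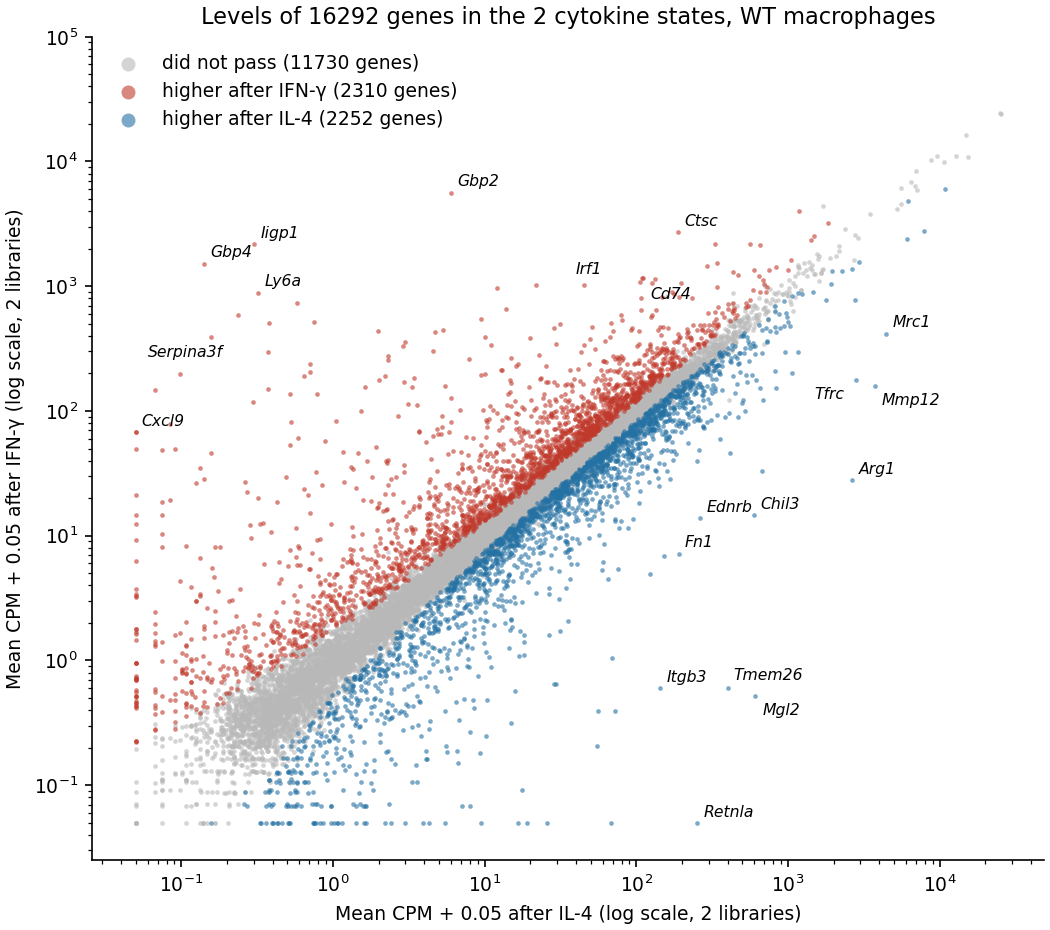
Mean CPM plus 0.05 of each of the 16292 genes tested after IL-4 (x axis) and after IFN-γ (y axis), both on log scales and each over 2 WT libraries. Red points are the 2310 genes called higher after IFN-γ, blue points the 2252 called higher after IL-4 and grey points the rest. Gbp4, Iigp1 and Ly6a lie far above the diagonal, and Retnla, Mgl2 and Tmem26 far below it.

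The plot of levels shows the extremes at both sides. The genes listed here needed a mean log2 CPM of at least 3 over the 4 libraries. That rule can leave out genes nearly silent in either state, among them Retnla, Cxcl9 and Clec9a, which are given below. Among well-expressed genes (mean log2 CPM of at least 3), the 12 with the largest log2 fold change towards IFN-γ were Gbp4, Iigp1, Serpina3f, Ly6a, Serpina3g, Tgtp1, Tgtp2, Gbp2, Gbp6, Gbp5, Gbp8 and Clic5, from 13.84 for Gbp4 down to 8.28 for Clic5. Of these, 8 encode interferon-induced GTPases. Ly6a, the surface antigen Sca-1, was at 793 and 983 CPM after IFN-γ and 0.338 and 0.203 CPM after IL-4 (log2 fold change 11.72 ± 0.20, edgeR adjusted p = 1.78e-11). Serpina3f, a serine protease inhibitor, was at 389.7 and 399 CPM and 0.145 and 0.0676 CPM. Clic5, of the chloride intracellular channel family, was at 198 and 185 CPM and 0.483 and 0.709 CPM. The 12 largest towards IL-4 were Mgl2, Tmem26, Itgb3, Arg1, Lipn, Chil3, Fn1, Dusp4, Mmp12, Clec10a, Atp6v0d2 and Ednrb, from -10.34 for Mgl2 to -4.26 for Ednrb. They include lectins, matrix and adhesion genes, an arginase, a lipase, a phosphatase, a proton pump subunit and an endothelin receptor. Lipn, a lipase, was at 0.994 and 1.01 CPM after IFN-γ and 73.5 and 64.6 CPM after IL-4. Dusp4, a MAP kinase phosphatase, was at 4.89 and 4.97 CPM and 111 and 136 CPM. Ednrb, the endothelin B receptor, was at 12.9 and 14.6 CPM and 248 and 280.4 CPM. None of these genes had overlapping libraries, which the rule that chose them required. Tgtp1 and Tgtp2, and Serpina3f and Serpina3g, have near-identical copies, so how their reads were split is uncertain.

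Signalling genes of the IFN-γ receptor pathway were higher after IFN-γ below the receptor, and not at it. Of 25 genes of the pathway, 19 were higher after IFN-γ and 2 were higher after IL-4 (1 without any one of the 4 libraries), with a median log2 fold change of 1.66. The receptor chain Ifngr1 was at 72.9 and 76.9 CPM after IFN-γ and 91.6 and 85.1 CPM after IL-4 and did not pass the test (-0.24 ± 0.14, edgeR adjusted p = 0.234). The other chain, Ifngr2, was lower after IFN-γ, at 77.4 and 80.0 CPM against 108 and 114 CPM (-0.49 ± 0.09, edgeR adjusted p = 0.00168). The receptor kinase Jak1 did not pass (-0.04 ± 0.11). Jak2 was at 94.1 and 93.8 and at 119 and 121 CPM (-0.35 ± 0.11, edgeR adjusted p = 0.0314), and it lost the call without any one of the 4 libraries, with adjusted p from 0.093 to 0.169.

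The transcription factors of the pathway differed by far more. Irf1, an early target of the pathway (GRCm38 chromosome 11, 53770014 to 53778374, plus strand), was at 1023 and 1035 CPM after IFN-γ and 45.6 and 45.2 CPM after IL-4, against 22.1 and 22.3 CPM in untreated cells (4.50 ± 0.22, edgeR adjusted p = 4.44e-08). In Irf1 both cytokines' libraries therefore lay above the untreated ones. Irf8, which acts with IRF1 and PU.1 on IFN-γ targets, differed by 2.89 ± 0.12 (edgeR adjusted p = 6.94e-09). Irf7, Batf2 and the MHC transactivators Nlrc5 and Ciita were higher after IFN-γ by 3.78, 6.02, 3.85 and 5.74 on the log2 scale. The feedback inhibitor Socs3 was at 30.4 and 48.9 CPM after IFN-γ and 1.93 and 2.47 CPM after IL-4 (4.15 ± 0.29). Socs1 was at 30.8 and 56.5 CPM and 6.27 and 14.3 CPM (2.07 ± 0.38, edgeR adjusted p = 0.00196). In both groups library 2 of Socs1 was about 2-fold above library 1. Without IL-4 library 2 its log2 fold change was 2.81, and with only the 4 libraries compared in the fit its edgeR adjusted p was 0.0591. In untreated cells Socs1 was at 0.280 and 0.614 CPM, below all 4 treated libraries.

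Interferon-induced GTPases had the highest median of the 30 gene lists examined. These proteins coat and break the vacuoles of intracellular microbes. All 20 members tested were higher after IFN-γ, each at least 2-fold, with a median log2 fold change of 9.04 and a range from 3.40 to 13.84. Together they took 1.59% and 1.63% of all counts after IFN-γ and 0.0177% and 0.0168% after IL-4, the latter near the 0.0142% and 0.0129% of untreated cells. Gbp2, a guanylate-binding protein (GRCm38 chromosome 3, 142620602 to 142638008, plus strand), was at 5522 and 5727 CPM after IFN-γ and 5.84 and 6.11 CPM after IL-4 (9.88 ± 0.38, edgeR adjusted p = 1.15e-08). Gbp4 was at 1569.6 and 1468 CPM against 0.0483 and 0.135 CPM, which is 1 and 4 counts, and without IL-4 library 2 its log2 fold change was 14.83 in place of 13.84. For each of these genes the IL-4 libraries were close to 0 on the scale of the IFN-γ libraries. Iigp1, an immunity-related GTPase, was at 2115 and 2243 CPM against 0.338 and 0.169 CPM. Igtp, another of that family, was at 419 and 472 CPM against 5.11 and 5.51 CPM (6.38 ± 0.13, edgeR adjusted p = 2.69e-11).

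Antiviral interferon-stimulated genes, which are classed with type I interferon, were on the IFN-γ side as well. Of 42 tested, 39 were higher after IFN-γ, 38 of them at least 2-fold, none was higher after IL-4, and the median was 2.87. Ifit2, an RNA-binding restriction factor, was at 411 and 449 CPM against 3.81 and 5.47 CPM (6.51 ± 0.18). Isg15, a ubiquitin-like modifier, was at 32.5 and 38.9 CPM against 1.40 and 1.15 CPM (4.82 ± 0.16). Oasl2, of the oligoadenylate synthetase family, was at 86.2 and 94.4 CPM against 5.11 and 5.24 CPM (4.12 ± 0.15). The 3 members that did not pass were Isg20, Trim25 and Ifitm2, at 0.76, 0.04 and 0.23.

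The windows before the start sites of these genes were read for the elements that the pathways are known to use. STAT dimers bind a palindrome with a 3-base spacer, TTCNNNGAA, called GAS. STAT6 also binds the palindrome with a 4-base spacer, TTCNNNNGAA, and interferon regulatory factors bind the ISRE, searched here by its core GAAANNGAAA. The sequences are RefSeq's, build GRCm38.p6, the 250 bases before the annotated start, 5′ to 3′ on the gene's strand, with each match to a searched pattern in capitals. Irf1 (chr11:53769764-53770013, plus strand) has a GAS match that begins 90 bases before the start, Igtp (chr11:58199306-58199555, plus strand) has GAS and ISRE core matches, and Gbp2 (chr3:142620413-142620662, plus strand) has an ISRE core match on the opposite strand, 59 bases before the start. Retnla (chr16:48842359-48842608, plus strand) and Pdcd1lg2 (chr19:29410669-29410918, plus strand), both higher after IL-4, have 4-base-spaced matches 145 and 82 bases before their starts. These 5 are shown as examples of genes from both sides that carry a match.
Irf1: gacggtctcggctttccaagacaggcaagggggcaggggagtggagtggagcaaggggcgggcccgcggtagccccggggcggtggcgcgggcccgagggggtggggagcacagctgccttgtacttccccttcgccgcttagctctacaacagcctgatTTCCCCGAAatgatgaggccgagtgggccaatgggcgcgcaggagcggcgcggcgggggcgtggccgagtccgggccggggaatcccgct
Igtp: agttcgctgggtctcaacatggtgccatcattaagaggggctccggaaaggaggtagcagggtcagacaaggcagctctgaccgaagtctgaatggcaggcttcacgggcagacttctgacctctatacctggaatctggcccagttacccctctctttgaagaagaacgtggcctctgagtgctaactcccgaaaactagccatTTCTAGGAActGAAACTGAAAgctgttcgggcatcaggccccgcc
Gbp2: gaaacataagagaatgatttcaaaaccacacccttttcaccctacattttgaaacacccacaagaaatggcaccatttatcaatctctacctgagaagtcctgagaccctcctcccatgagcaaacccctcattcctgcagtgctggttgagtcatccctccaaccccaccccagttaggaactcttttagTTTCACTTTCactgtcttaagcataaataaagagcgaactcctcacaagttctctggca
Retnla: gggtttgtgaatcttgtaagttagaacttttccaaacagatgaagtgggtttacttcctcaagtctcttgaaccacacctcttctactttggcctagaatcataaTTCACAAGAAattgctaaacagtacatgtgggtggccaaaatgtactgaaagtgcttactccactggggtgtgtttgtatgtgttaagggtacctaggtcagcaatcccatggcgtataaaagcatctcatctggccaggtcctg
Pdcd1lg2: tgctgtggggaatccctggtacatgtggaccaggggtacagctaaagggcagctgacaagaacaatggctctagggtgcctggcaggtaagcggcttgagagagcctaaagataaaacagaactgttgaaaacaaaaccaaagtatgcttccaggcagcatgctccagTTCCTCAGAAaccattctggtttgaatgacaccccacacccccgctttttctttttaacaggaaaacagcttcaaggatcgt

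Counted over whole windows of 300 bases (250 before to 50 after the start, both strands), the ISRE core was the pattern whose share differed most between gene sets. Windows were found for 9864 of 16284 gene symbols tested, 12561 windows in all. The ISRE core was in 3.35% of them, in 12.4% of the 942 windows of genes at least 2-fold higher after IFN-γ, in 29% of the 131 windows of those at least 16-fold higher, and in 2.89% and 2% of the 864 and 100 windows of the same classes on the IL-4 side. GAS was in 6.98% of all, in 10.2% and 18.3% on the IFN-γ side and in 5.44% and 8% on the IL-4 side. The 4-base-spaced palindrome was in 5.62% of all, in 5.41% and 8.4% on the IFN-γ side and in 7.75% and 12% on the IL-4 side. In the table of all 32851 windows of this length the shares were 3.44% for the ISRE core, 8.3% for GAS and 6.95% for the 4-base-spaced palindrome. GAS and the 4-base-spaced palindrome were both present in 64 of the 12561 windows, and an ISRE core match overlapped a palindrome in 23. Base composition moved with the sets: the median GC content was 60.3% over all, 55.3% and 50.3% on the IFN-γ side and 58.7% and 56.7% on the IL-4 side, and its part in these shares was not tested. A match is a run of letters and no evidence of binding, and windows of 1 gene with several starts are not independent.

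**Figure D2:**
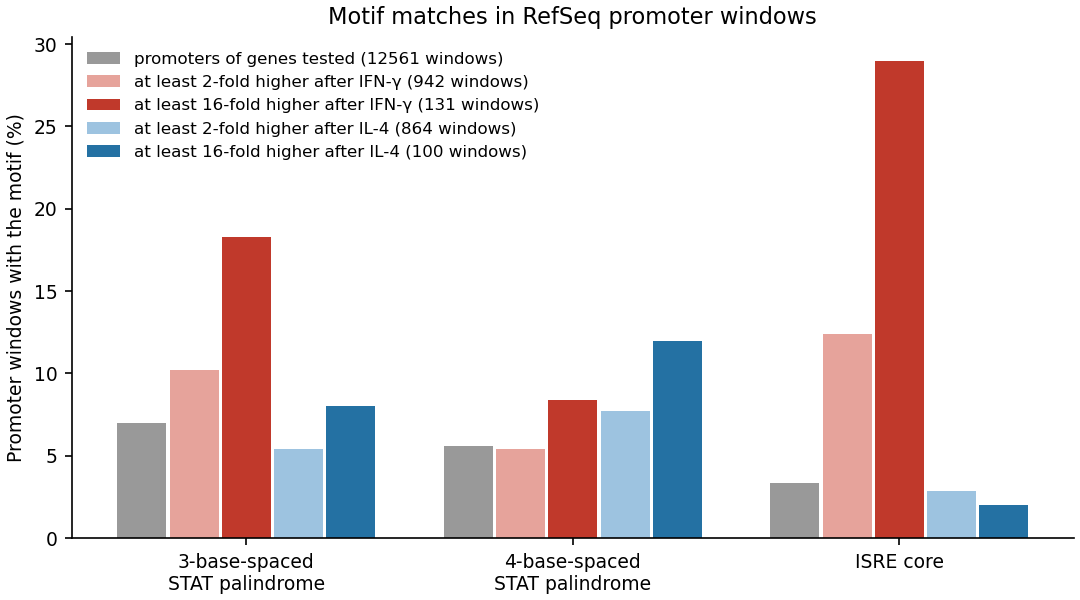
Share of 300-base RefSeq promoter windows (y axis, %) that hold each of the 3 patterns (x axis), for all genes tested (grey), genes at least 2-fold and at least 16-fold higher after IFN-γ (light and dark red) and the same classes after IL-4 (light and dark blue). The ISRE core reaches 29% in the strongest IFN-γ class against 3.35% over all genes tested.

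The antigen-presentation genes were on the IFN-γ side in both arms of the pathway. Of 24 MHC class I and peptide-loading genes, 22 were higher after IFN-γ and none after IL-4 (median 1.86). Tap1, a chain of the peptide transporter, was at 494 and 430.5 CPM after IFN-γ and 28.3 and 28.8 CPM after IL-4 (4.02 ± 0.12, edgeR adjusted p = 4.83e-10). The immunoproteasome subunit Psmb8 was at 437 and 437 CPM and 71.7 and 69.0 CPM (2.64 ± 0.09). The general chaperones of the loading complex, Calr and Canx, did not pass, at 0.07 and -0.15. Of 15 MHC class II genes, 12 were higher after IFN-γ and none after IL-4 (median 3.35). Ciita, the transactivator of class II, was at 193 and 172 CPM and 3.09 and 3.68 CPM (5.74 ± 0.19, edgeR adjusted p = 1.03e-09), beside 0.629 and 0.750 CPM in untreated cells. Cd74, the invariant chain, was at 1109.9 and 1046 CPM and 101 and 111 CPM (3.35 ± 0.13), beside 18.1 and 17.3 CPM in untreated cells. For both genes the IL-4 libraries thus lay between the untreated and the IFN-γ libraries. H2-DMb1, which loads class II with peptide, was at 163 and 179.7 CPM and 24.8 and 26.1 CPM.

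Ligands that meet T cells were divided between the states. Of 17 costimulatory and checkpoint genes, 9 were higher after IFN-γ and 4 after IL-4 (median 0.66). Cd86 was at 64.6 and 72.6 CPM after IFN-γ and 3.38 and 3.88 CPM after IL-4 (4.23 ± 0.22), while its relative Cd80 was at 6.25 and 6.58 CPM and 13.7 and 13.8 CPM (-1.10 ± 0.16). The ligands of PD-1 also went apart. Cd274, which encodes PD-L1, was at 867 and 737 CPM after IFN-γ and 113 and 101 CPM after IL-4 (2.90 ± 0.25, edgeR adjusted p = 6.5e-06). Pdcd1lg2, which encodes PD-L2, was at 2.07 and 1.73 CPM and 5.98 and 6.86 CPM (-1.76 ± 0.33, edgeR adjusted p = 0.00153), and all 4 treated libraries were above untreated cells, where it had 0.0349 and 0 CPM. Tnfsf10, the death ligand TRAIL, was at 33.9 and 30.9 CPM and 0.676 and 0.777 CPM. Icosl was higher after IFN-γ (2.22 ± 0.20), and Cd276 and the inhibitory receptor Cd200r1 were higher after IL-4 (-1.97 ± 0.34 and -0.85 ± 0.10).

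The IL-4 pathway split between its receptor and its targets. Of 20 genes, 9 were higher after IL-4 and 6 were higher after IFN-γ (median -0.41). All 3 receptor chains were on the IFN-γ side. Il4ra, which binds IL-4, was at 338 and 327 CPM after IFN-γ and 104 and 98.9 CPM after IL-4, with 127 and 135 CPM in untreated cells (1.71 ± 0.09, edgeR adjusted p = 4.59e-08). Il13ra1, the partner chain of the type II receptor, was at 36.7 and 36.5 CPM and 3.57 and 2.23 CPM (3.69 ± 0.21). Il2rg, the common gamma chain, was at 60.8 and 73.4 CPM and 17.6 and 18.9 CPM (1.88 ± 0.16). Stat6 itself did not pass, at 210.1 and 199 CPM and 203 and 202 CPM (0.02 ± 0.09, edgeR adjusted p = 0.908).

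The transcription factors downstream of STAT6 were on the IL-4 side. Irf4, which IL-4 induces, was at 1.57 and 1.799 CPM after IFN-γ and 30.6 and 32.3 CPM after IL-4 (-4.21 ± 0.18, edgeR adjusted p = 6.94e-09). Klf4 was at 5.05 and 5.47 CPM and 56.0 and 62.8 CPM (-3.50 ± 0.13), and Egr2 at 4.35 and 4.53 CPM and 58.8 and 71.6 CPM (-3.87 ± 0.22). In these 3 genes the IFN-γ libraries were below the untreated ones, which had 2.41 and 3.34 CPM of Irf4, 5.77 and 6.89 of Klf4 and 5.35 and 5.32 of Egr2. Pparg, a lipid-sensing nuclear receptor, was at 17.9 and 20.0 CPM and 65.2 and 63.1 CPM (-1.76 ± 0.11). Socs2 was at 0.248 and 0.432 CPM and 1.83 and 2.60 CPM (-2.68 ± 0.45). Egr3 went the other way, at 3.93 and 3.42 CPM after IFN-γ with no count after IL-4, at least 61.7-fold higher against a floor of 3 counts over the IL-4 group. Over 39 myeloid transcription factors, 15 were higher after IL-4 and 9 after IFN-γ (61.5% called, median -0.30).

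IL-4 effector genes, chosen from earlier knowledge of alternative activation, were nearly all on the IL-4 side. Of 30 tested, 26 were higher after IL-4, 3 were higher after IFN-γ and 1 did not pass (median -3.11). They took 1.46% and 1.32% of counts after IL-4 and 0.35% and 0.361% after IFN-γ. Retnla, a secreted resistin-like protein, had no count in either IFN-γ library and 248 and 259 CPM after IL-4, at least 4386-fold higher against a floor of 3 counts over the IFN-γ group (edgeR adjusted p = 1.07e-06). Arg1, the arginase that turns arginine to ornithine, was at 26.1 and 29.7 CPM after IFN-γ and 2923 and 2399 CPM after IL-4 (-6.57 ± 0.55, edgeR adjusted p = 2.77e-05). Untreated cells had 0.734 and 1.36 CPM of Arg1, below the IFN-γ libraries.

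Among the lectins, Mgl2 (GRCm38 chromosome 11, 70130329 to 70137550, plus strand) was at 0.538 and 0.396 CPM and 586 and 622 CPM (-10.34 ± 0.42), and Clec10a at 6.09 and 7.52 CPM and 136 and 168 CPM (-4.48 ± 0.26). Mrc1, the mannose receptor (GRCm38 chromosome 2, 14229392 to 14332057, plus strand), was at 432 and 400.2 CPM after IFN-γ and 4515 and 4398 CPM after IL-4 (-3.42 ± 0.10, edgeR adjusted p = 3.91e-10). Its untreated level, 2119.6 and 2052 CPM, lay between the cytokines. Chil3, a chitinase-like protein, was at 13.9 and 15.1 CPM and 754 and 449 CPM (-5.37 ± 0.27), and its IL-4 libraries stood further apart than its IFN-γ libraries. Tmem26, used as a surface marker of alternative activation in other settings, was at 0.663 and 0.432 CPM and 423 and 377 CPM (-9.52 ± 0.36). Cdh1, the E-cadherin gene, had 2 counts over the IFN-γ libraries and 19.0 and 16.04 CPM after IL-4, a ratio of 454.1 with a 95% exact counting interval of 125.3 to 3755.

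The exceptions within the IL-4 list were Tgm2, Ocstamp and Il1r2. Tgm2, a transglutaminase widely used as an IL-4 marker, was at 1182 and 1106 CPM after IFN-γ and 147 and 119 CPM after IL-4, with 110.1 and 98.5 CPM in untreated cells (3.11 ± 0.14, edgeR adjusted p = 1e-08). Ocstamp, needed for fusion of osteoclasts and giant cells, was at 105 and 97.9 CPM and 9.41 and 10.03 CPM, with 0.594 and 0.239 CPM in untreated cells (3.38 ± 0.17, edgeR adjusted p = 2.52e-08). Both treated groups were above the untreated libraries in Ocstamp. Il1r2 was low, at 1.57 and 2.23 CPM and 0.820 and 0.608 CPM, and its adjusted p was 0.0714 without IFN-γ library 2 and 0.1 without IL-4 library 2.

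**Figure D3:**
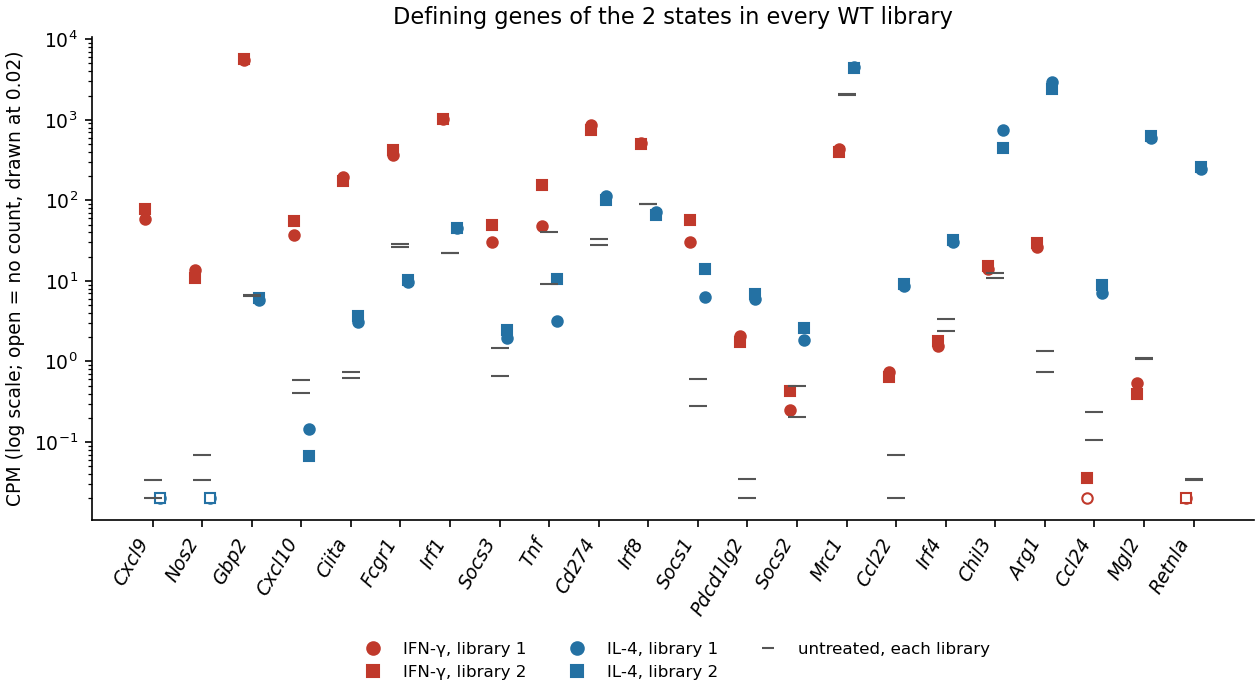
CPM on a log scale (y axis) of the 22 tested genes commonly used to define the 2 states (x axis), in each WT library. Red is IFN-γ, blue IL-4 (circles library 1, squares library 2), dashes are the untreated libraries and open symbols mark no count. All 22 genes were called, 12 higher after IFN-γ and 10 after IL-4, beside 28% of all genes tested. The libraries of the 2 cytokines do not overlap in any of the 22, nor in 65.5% of all genes tested.

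The plot of the defining genes also shows where replicates were far apart. Il12b and Ccl17, also on that list, had too few counts to be tested. Tnf was at 48.7 and 155 CPM after IFN-γ and 3.14 and 10.4 CPM after IL-4 (3.86 ± 0.90, edgeR adjusted p = 0.0163). Library 2 was about 3-fold above library 1 in both groups, and leaving out single libraries moved the log2 fold change to 2.80 (without IFN-γ library 2) and 5.03 (without IL-4 library 2). Without IL-4 library 1 the edgeR adjusted p was 0.0872, and with only the WT libraries in the fit it was 0.108. The choice of these genes rests on earlier knowledge of the states, so their directions are a description of how the cells fit those names.

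Arginine, nitric oxide and polyamine genes held both extremes and little between. Nos2, the inducible nitric oxide synthase, was at 13.6 and 11.0 CPM after IFN-γ with no count after IL-4, at least 206-fold higher against the floor of 3 counts over the group (edgeR adjusted p = 7.01e-08). Of the 17 genes, Nos2 alone was higher after IFN-γ and 5 were higher after IL-4, among them Arg1 and Slc7a2 (median -0.33). The called share was 35.3%, against 28% of all genes tested. Slc7a2, an arginine transporter, was at 59.0 and 52.4 CPM and 242 and 195 CPM (-1.97 ± 0.13). The number higher after IL-4 was 3 without IFN-γ library 1, 2 without either IL-4 library and 8 without untreated CKO library 1, which enters through the shared spread.

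Genes of microbial killing and IFN-γ effectors were mostly on the IFN-γ side, with 24 of 29 higher after IFN-γ and 3 after IL-4 (median 2.28). Acod1, which makes itaconate, was at 422 and 447 CPM after IFN-γ and 2.12 and 1.76 CPM after IL-4 (7.82 ± 0.18, edgeR adjusted p = 6.7e-11). Mpeg1, the pore-forming perforin-2, was at 4358 and 3630.5 CPM and 1266 and 1095 CPM (1.76 ± 0.20), with 2829 and 2241 CPM in untreated cells, between the cytokines. Ncf4, a cytosolic subunit of the phagocyte oxidase, was on the IL-4 side, at 49.7 and 52.3 CPM and 106 and 104 CPM (-1.05 ± 0.09, edgeR adjusted p = 1.84e-06). The number on the IL-4 side was 1 without IFN-γ library 1 or IL-4 library 2.

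The Fc receptors Fcgr1 and Fcgr2b were on opposite sides, in a list of pattern and Fc receptors with 70.8% called. Of 24 pattern and Fc receptors tested, 13 were higher after IFN-γ and 4 after IL-4 (median 0.55), and the latter number was 2 without IFN-γ library 2 or either IL-4 library. Fcgr1, the high-affinity activating Fc receptor (GRCm38 chromosome 3, 96282909 to 96293969, minus strand), was at 360.4 and 422 CPM after IFN-γ and 9.80 and 10.2 CPM after IL-4 (5.29 ± 0.15, edgeR adjusted p = 3.22e-10). Fcgr2b, the inhibitory Fc receptor, was at 131 and 115 CPM and 527 and 492 CPM (-2.05 ± 0.12, edgeR adjusted p = 9.53e-08). Nod1, an intracellular peptidoglycan sensor, was at 99.3 and 78.2 CPM and 13.3 and 14.5 CPM (2.68 ± 0.16), and Tlr9, a DNA sensor, at 48.2 and 30.6 CPM and 1.30 and 1.96 CPM (4.56 ± 0.32).

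Of 18 complement genes, 9 were higher after IFN-γ and 1 after IL-4 (2 without untreated CKO library 1). The called share of the complement genes was 55.6%. Their median log2 fold change was 1.62, or 1.08 with the 3 genes that had no count in 1 state set at their bounds. C4b had 20.6 and 17.8 CPM after IFN-γ and 2 counts over the IL-4 libraries, a ratio of 474.1 with a 95% exact counting interval of 130.9 to 3920.0. C3 was at 63.2 and 73.9 CPM and 25.7 and 25.2 CPM (1.43 ± 0.11), and C1ra, a protease of the classical pathway, at 14.0 and 16.8 CPM and 2.85 and 3.45 CPM (2.28 ± 0.17). Itgax, the CD11c chain of a complement receptor, was on the IL-4 side, at 44.1 and 36.0 CPM and 281 and 224 CPM (-2.66 ± 0.27).

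Of the uptake receptors outside the lectins, Axl, a receptor for apoptotic cells, was at 164 and 171 CPM after IFN-γ and 14.2 and 15.7 CPM after IL-4 (3.48 ± 0.16, edgeR adjusted p = 1.86e-08). The scavenger receptor Msr1 was at 1207 and 1265 CPM and 503 and 429.6 CPM (1.41 ± 0.12). In the whole list of 18 scavenger and lectin receptors, 8 were higher after IL-4 and 4 after IFN-γ (median -0.60).

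The chemokines Cxcl9 and Cxcl10, which bind CXCR3 on T cells, were on the IFN-γ side. Of 19 chemokine genes tested, 7 were higher after IFN-γ and 3 after IL-4 (52.6% called, median 0.26). Cxcl9 (GRCm38 chromosome 5, 92321347 to 92328079, minus strand) was at 58.3 and 77.5 CPM after IFN-γ with no count after IL-4, at least 1139.7-fold higher against the floor of 3 counts over the group (edgeR adjusted p = 4.49e-08). Cxcl10 was at 36.9 and 55.8 CPM and 0.145 and 0.0676 CPM (8.80 ± 0.37), and Cxcl16 at 31.3 and 28.2 CPM and 2.17 and 1.35 CPM (4.11 ± 0.23). On the IL-4 side Ccl24, which draws eosinophils, had 1 count over the IFN-γ libraries and 7.04 and 8.95 CPM after IL-4, a ratio of 430.0 with a 95% exact counting interval of 76.8 to 17030. Ccl22 was at 0.745 and 0.648 CPM and 8.73 and 9.15 CPM (-3.68 ± 0.25), and Ccl9 at 116 and 127 CPM and 669.6 and 699 CPM (-2.49 ± 0.13). Untreated cells had 532 and 526 CPM of Ccl9, near the IL-4 libraries, and 0 and 0.0682 CPM of Ccl22, below both cytokines.

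Among 13 genes listed as chemokine receptors, Fpr2 included, 6 were higher after IFN-γ and 2 after IL-4 (61.5% called, median 0.96). Fpr2, a formyl peptide receptor and not a chemokine receptor, was at 19.3 and 25.2 CPM after IFN-γ and 0.241 and 0.203 CPM after IL-4 (6.64 ± 0.39). Cxcr4 was on the IL-4 side, at 6.34 and 5.33 CPM and 49.9 and 24.0 CPM (-2.66 ± 0.40), with IL-4 library 1 about 2-fold above library 2 and a log2 fold change of -2.03 without it. Among 16 cytokine genes, 9 were higher after IFN-γ and 1 after IL-4, or 0 without IL-4 library 2 or either IFN-γ library (median 1.67). That list, with 62.5% called, also counts the receptor chain Il12rb1, which pairs with other chains to bind IL-12 and IL-23. Il12rb1 was at 352 and 315 CPM and 2.61 and 3.11 CPM (6.85 ± 0.14, edgeR adjusted p = 3.44e-11). The soluble trap Il18bp was at 150.05 and 167 CPM and 5.69 and 5.24 CPM (4.86 ± 0.20), and Il27 at 8.08 and 11.0 CPM and 0.241 and 0.236 CPM (5.30 ± 0.27).

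Sterol synthesis genes were on the IL-4 side. Of 24 genes tested, 20 were higher after IL-4 and none after IFN-γ (median -1.53), and 17 of the 20 differed at least 2-fold. Together they took 0.108% and 0.108% of counts after IFN-γ and 0.251% and 0.287% after IL-4, with 0.245% and 0.284% in untreated cells. The IL-4 shares thus stood at the untreated level and the IFN-γ shares below it. Hmgcs1, which makes HMG-CoA, was at 71.3 and 75.6 CPM after IFN-γ and 268 and 289 CPM after IL-4 (-1.92 ± 0.10, edgeR adjusted p = 5.65e-08). Mvd, the mevalonate diphosphate decarboxylase, was at 12.1 and 13.9 CPM and 69.4 and 75.8 CPM (-2.48 ± 0.14, edgeR adjusted p = 6.73e-08). Cyp51, which demethylates lanosterol, was at 54.2 and 58.4 CPM and 164 and 182 CPM (-1.62 ± 0.11).

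Carbon metabolism differed by less. Of 23 glycolysis and pentose phosphate genes, 14 were higher after IFN-γ and 1 after IL-4, or 0 without any one of the 4 libraries (median 0.54), and 7 of the 14 differed at least 2-fold. Hk3, a hexokinase, was at 2249 and 2022 CPM after IFN-γ and 646 and 655 CPM after IL-4 (1.72 ± 0.10), Pfkp, a phosphofructokinase, at 392.5 and 414 CPM and 138 and 151 CPM (1.48 ± 0.11), and the lactate exporter Slc16a3 at 118 and 129 CPM and 30.0 and 37.4 CPM (1.87 ± 0.13). Pkm, pyruvate kinase, was at 3187 and 3191 CPM and 1840.4 and 1837 CPM (0.79 ± 0.13). In the TCA cycle list of 25, 3 were higher after IFN-γ and 4 after IL-4, a called share of 28% that equals that of all genes tested (median -0.14), and the number on the IFN-γ side was 1 without IL-4 library 1. Beside Acod1, the clearest were the isocitrate dehydrogenases Idh1 (-1.38 ± 0.19) and Idh2 (-0.70 ± 0.09) and the aconitase Aco1 (-0.87 ± 0.08), all higher after IL-4. Of 21 fatty acid oxidation genes, 9 were higher after IL-4 and 1 after IFN-γ (47.6% called), none of them by 2-fold (median -0.28). The 9 became 5 without either IL-4 library, and the 1 became 0 without any one of the 4 libraries. Acadm, which handles medium-chain fatty acids, was at 38.4 and 39.2 CPM and 58.4 and 57.6 CPM (-0.58 ± 0.10).

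Lipid handling genes of the LXR and PPAR pathways were higher after IL-4 in 10 of 20 cases and after IFN-γ in 3 (median -0.42). The number on the IFN-γ side was 1 without IFN-γ library 1 or either IL-4 library. Fabp4, a fatty acid binding protein, was at 34.6 and 31.7 CPM and 149 and 121 CPM (-2.02 ± 0.29), and Lpl, lipoprotein lipase, went the other way, at 2626 and 2422 CPM and 1549 and 1441 CPM (0.76 ± 0.16).

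Iron handling genes were called in 13 of 15 cases, 5 higher after IFN-γ and 8 after IL-4 (median -0.38). That is 86.7% called, against 28% of all genes tested. Most of these differences were small: 1 gene was at least 2-fold higher after IFN-γ and 2 were after IL-4. Tfrc, the transferrin receptor that takes iron in, was at 162 and 189 CPM after IFN-γ and 2902 and 2754 CPM after IL-4, with 709.9 and 736 CPM in untreated cells, between the cytokines (-4.01 ± 0.13, edgeR adjusted p = 1.03e-09). The ferritin light chain Ftl1 was at 5824 and 6181 CPM and 10969 and 10657 CPM, with 10107 and 10463 CPM in untreated cells (-0.85 ± 0.10, edgeR adjusted p = 2.94e-05). Slc11a1, the iron and manganese exporter of the phagosome, was on the IFN-γ side, at 465 and 443 CPM and 283 and 262 CPM (0.74 ± 0.11). Cp, ceruloplasmin, had 1.04 and 1.08 CPM and 3 counts over the IL-4 libraries, a ratio of 17.5 with a 95% exact counting interval of 5.69 to 87.6. The number higher after IL-4 was 4 without IL-4 library 1 and 5 without IFN-γ library 2, and the number higher after IFN-γ was 3 without IFN-γ library 2 or either IL-4 library.

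Lysosomal proteases parted by member. Of 34 lysosomal genes, 5 were higher after IFN-γ and 9 after IL-4, or 41.2% called against 28% of all genes tested (median -0.19). Ctsc, cathepsin C, was at 2531 and 2915 CPM after IFN-γ and 189 and 189.9 CPM after IL-4 (3.84 ± 0.15, edgeR adjusted p = 4.28e-09), and Ctsh at 478 and 457 CPM and 53.9 and 47.7 CPM (3.20 ± 0.25). Ctsl was at 767 and 784 CPM and 2953 and 2615 CPM (-1.84 ± 0.11), and the bone-degrading Ctsk at 2.73 and 1.37 CPM and 16.5 and 13.3 CPM (-2.87 ± 0.31). Atp6v0d2, a proton pump subunit known from osteoclasts, was at 32.97 and 33.3 CPM and 720.5 and 623 CPM (-4.34 ± 0.30, edgeR adjusted p = 1.37e-06).

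Matrix, protease and growth factor genes were called in 23 of 31 cases (74.2%), 14 higher after IL-4 and 9 after IFN-γ (median -0.30). Mmp12, the macrophage elastase, was at 162 and 155 CPM after IFN-γ and 4171 and 3372 CPM after IL-4 (-4.57 ± 0.20, edgeR adjusted p = 1.29e-08). Fn1, fibronectin, was at 7.66 and 6.62 CPM and 219.7 and 160.4 CPM (-4.73 ± 0.17), and Igf1 at 148 and 159 CPM and 891 and 785 CPM (-2.45 ± 0.12). Tgfb3 and Pdgfb were on the IFN-γ side, Tgfb3 at 3.23 and 3.53 CPM and 0.0965 and 0.0676 CPM and Pdgfb at 14.3 and 15.5 CPM and 5.16 and 6.05 CPM. Integrin genes were divided as well: of 21 fusion and integrin genes, 6 were higher after IFN-γ and 9 after IL-4 (71.4% called, median -0.30). Itgal, the alpha chain of LFA-1, was at 277 and 259 CPM and 16.4 and 13.3 CPM (4.18 ± 0.22), whereas Itgb3, the beta chain of the vitronectin receptor, was at 0.745 and 0.360 CPM and 147 and 139.7 CPM (-8.04 ± 0.25, edgeR adjusted p = 7.68e-10). Ahnak, a large scaffold protein, was at 3029.7 and 2557 CPM and 7889 and 8022 CPM (-1.51 ± 0.13), and Lgals3, galectin-3, at 2444 and 2362 CPM and 6244 and 5974 CPM (-1.35 ± 0.10).

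The proliferation, NF-κB and stress lists had medians from -0.06 to 0.35. In the proliferation and stress lists the numbers of calls moved with single libraries. Of 46 cell cycle genes, 11 were higher after IFN-γ and 2 after IL-4, or 28.3% called against 28% of all genes tested (median 0.30). The former number was 5 without IFN-γ library 1, 6 without either IL-4 library and 20 without untreated CKO library 1 in the shared spread, and the latter was 0 to 1 without any one of the 4 libraries. Ccnd2, cyclin D2, was at 93.0 and 99.0 CPM after IFN-γ and 15.6 and 16.8 CPM after IL-4 (2.57 ± 0.43, edgeR adjusted p = 0.00162), the most different of the 46. Of 25 NF-κB and death receptor genes, 8 were higher after IFN-γ, 6 of them at least 2-fold, and none after IL-4 (median 0.35). That is 32% called, against 28% of all genes tested. Mlkl, the effector of necroptosis, was at 132 and 129.8 CPM and 32.5 and 31.4 CPM (2.03 ± 0.10). Of 23 heat shock, ER stress and ATF4 genes, 4 were higher after IFN-γ and 6 after IL-4 (median -0.06), and the 4 were 1 or 2 without IFN-γ library 2 or either IL-4 library. In the heat shock, ER stress and ATF4 list 43.5% were called, against 28% of all genes tested. Hsph1, a heat shock protein, was at 40.1 and 41.2 CPM and 106 and 103 CPM (-1.36 ± 0.16), and the cystine transporter Slc7a11 at 29.1 and 33.9 CPM and 107 and 98.4 CPM (-1.71 ± 0.15).

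**Figure D4:**
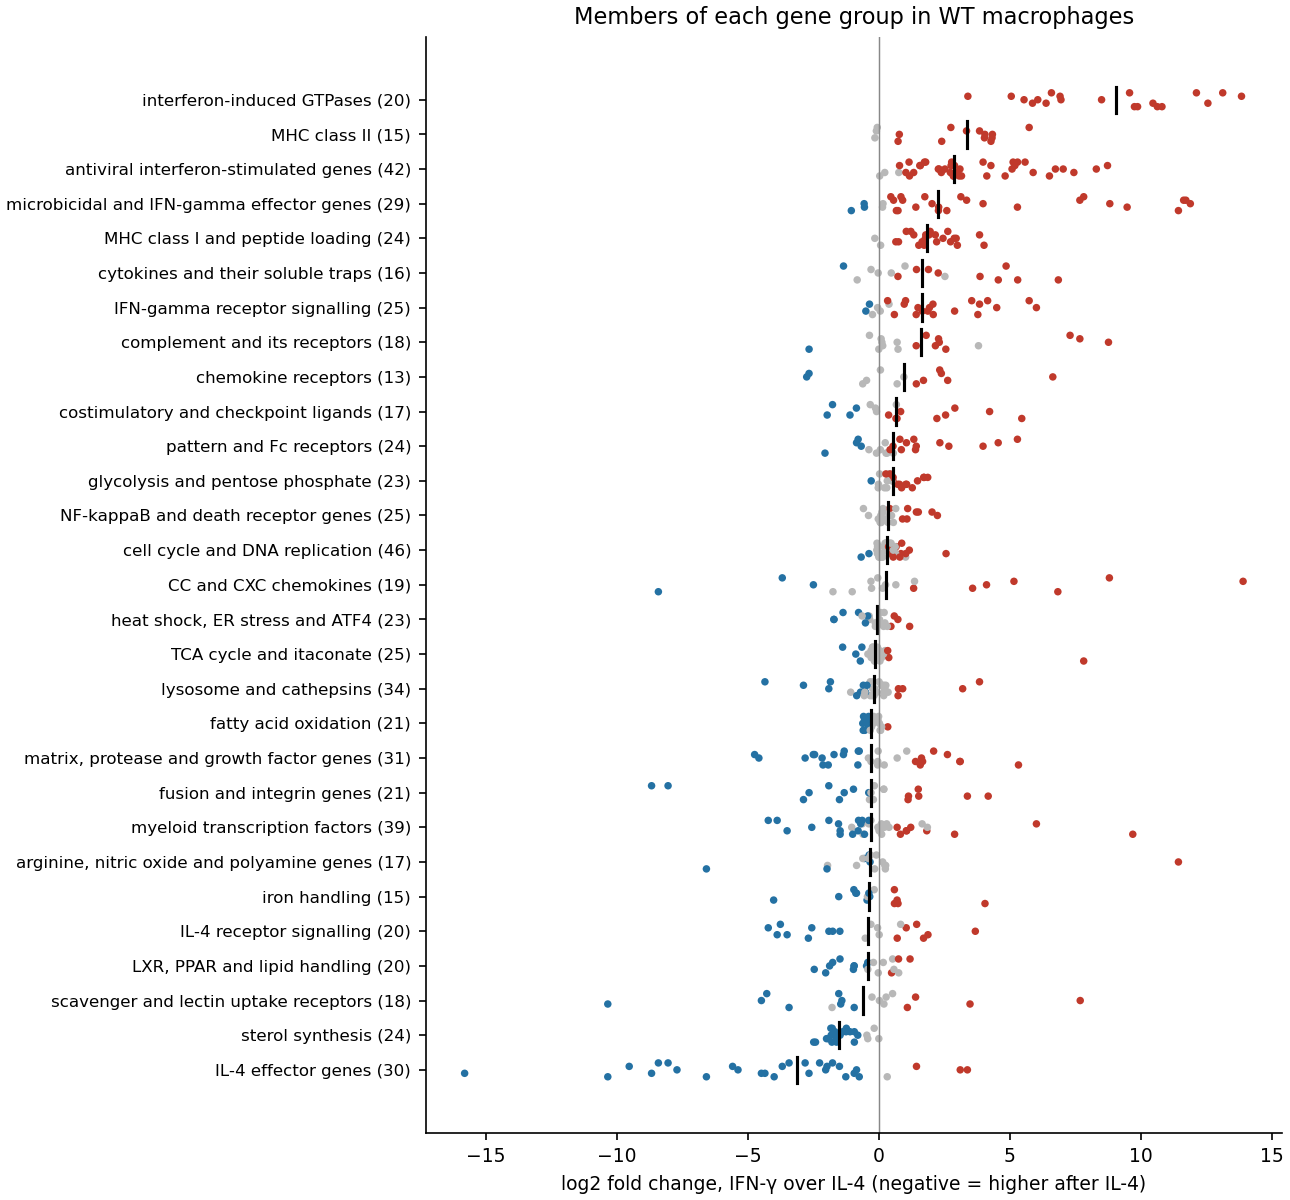
The log2 fold change, IFN-γ over IL-4 (x axis), of each tested member of 29 gene groups (rows, number tested in brackets) in WT macrophages. Red points were called higher after IFN-γ, blue points higher after IL-4, grey points did not pass, and black bars are medians. Interferon-induced GTPases lie wholly to the right at a median of 9.04 and IL-4 effector genes mostly to the left at -3.11. Values of genes with no count in 1 state depend on the prior count.

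Of 8 lists of markers of other cells, 4 held a gene that passed the test. Of 10 neutrophil markers tested, 3 were higher after IFN-γ and 1 after IL-4, and their summed level was 92.8 and 104 CPM of the library total after IFN-γ against 210.0 and 207.5 CPM after IL-4. Mmp8 alone was higher after IL-4, at 39.4 and 38.7 CPM against 170.1 and 175.1 CPM. S100a8, S100a9 and Ngp were the 3 higher after IFN-γ, and Ly6g had 1 to 3 counts in each library. Of 5 dendritic cell markers tested, 2 were higher after IFN-γ and 2 after IL-4, and the summed level of all 7 was 45.7 and 53.3 CPM against 2.58 and 2.48 CPM. Nearly all of it was Clec9a, a receptor for dead cells, with 1056 and 1465 counts after IFN-γ and 1 and 0 after IL-4, while Flt3, Siglech and Ccr7 had at most 7 counts in any of the 4 libraries. Of 2 tested markers of eosinophils, basophils and mast cells, Kit was higher after IFN-γ (log2 fold change 2.54, edgeR adjusted p = 0.0413), with 12 and 7 counts against 1 and 2, while the summed level of the list was 1.09 and 1.35 CPM against 1.32 and 1.11 CPM and Mcpt8, Fcer1a and Ms4a2 were at 0 in all 4 libraries. Of 3 tested endothelial markers, Pecam1 was higher after IL-4, at 6.24 and 5.83 CPM after IFN-γ against 8.97 and 9.38 CPM (-0.59 on the log2 scale, adjusted p = 0.0362 by edgeR). That list's summed level was 21.6 and 18.8 CPM against 25.1 and 30.9 CPM. These marker genes were picked out after their values were seen. The part of such cells in the results was not tested.

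The same comparison can be made in the libraries labelled CKO, which share no library with the WT comparison. There, 4877 of the 16292 genes were called (29.9%). Of the WT calls, 3190 were called in the same direction in CKO (69.9% of the WT calls and 65.4% of the CKO calls), and 48 in the opposite direction. The log2 fold changes of the genotypes had a Pearson r of 0.868 and a Spearman rho of 0.677 across genes, which are not independent replicates. The test of the difference itself called 495 genes (3.04%), 147 where the WT value was the more positive (0.902%) and 348 where it was the more negative (2.14%). With at least 2-fold required, 303 (1.86%) were left, 100 (0.614%) and 203 (1.25%) in these directions. The number was 131 to 422 with any one of the 8 treated libraries left out, and the libraries that brought it lowest were IL-4 WT library 1 (131) and IFN-γ CKO library 2 (142).

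Of 42 antiviral genes, 11 passed the test of the difference, all with a smaller WT value, and of 24 class I genes 4 did so in the same direction. These counts rested on single libraries. The 11 became 3 without IL-4 WT library 2, 4 without IFN-γ CKO library 2, 6 without IFN-γ CKO library 1, 7 without IL-4 WT library 1 and 18 without untreated CKO library 1. The 4 became 1 without IFN-γ WT library 1, 0 without either IL-4 WT library, either IFN-γ CKO library or IL-4 CKO library 2, 10 without IL-4 CKO library 1 and 7 without untreated CKO library 1. Oasl2 kept its call with each library left out, while Ddx60, Isg15, Ifit2, Irf7, Igtp and Psmb8 each lost it without at least 1 library, with their highest edgeR adjusted p from 0.0508 for Igtp to 0.138 for Psmb8. Oasl2 was at 86.2 and 94.4 CPM after IFN-γ and 5.11 and 5.24 CPM after IL-4 in WT, and at 289 and 283 CPM and 4.19 and 3.05 CPM in CKO (difference of log2 fold changes -2.19 ± 0.20, edgeR adjusted p = 0.000266).

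Genes outside the interferon lists also differed between genotypes. Ocstamp was at 105 and 97.9 CPM after IFN-γ and 9.41 and 10.03 CPM after IL-4 in WT, and at 11.4 and 10.6 CPM and 14.4 and 13.9 CPM in CKO, where the cytokines were thus nearly level (3.75 ± 0.23, edgeR adjusted p = 1.68e-05). Myh10, a non-muscle myosin, was at 55.3 and 56.6 CPM and 4.10 and 4.05 CPM in WT and at 7.34 and 6.47 CPM and 4.23 and 4.25 CPM in CKO (3.08 ± 0.22, edgeR adjusted p = 5.87e-05). Zyx, a focal adhesion protein, was at 493 and 391.7 CPM and 92.4 and 93.3 CPM in WT and at 117 and 83.9 CPM and 135 and 99.9 CPM in CKO (2.48 ± 0.25, edgeR adjusted p = 0.000514). In these 3 genes the IFN-γ libraries were lower in CKO, and the IL-4 libraries of the genotypes were much closer.

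Ednrb was at 12.9 and 14.6 CPM after IFN-γ and 248 and 280.4 CPM after IL-4 in WT, and at 207 and 206 CPM and 401 and 419 CPM in CKO (-3.27 ± 0.18, edgeR adjusted p = 1.02e-05). Chil3 was at 13.9 and 15.1 CPM and 754 and 449 CPM in WT and at 111 and 134 CPM and 693 and 571 CPM in CKO (-3.00 ± 0.33, edgeR adjusted p = 0.00121). Klf4 was at 5.05 and 5.47 CPM and 56.0 and 62.8 CPM in WT and at 20.9 and 21.8 CPM and 65.2 and 68.1 CPM in CKO (-1.86 ± 0.17, edgeR adjusted p = 0.000266). Here too the IFN-γ libraries stood apart between genotypes, now higher in CKO, and the IL-4 libraries of Chil3 and Klf4 were close. Cd72 and the nuclear receptor Nr1h3 were higher after IL-4 in WT and higher after IFN-γ in CKO. Cd72 had a log2 fold change of -0.82 in WT and 1.88 in CKO (-2.70 ± 0.25, edgeR adjusted p = 0.000266). Nr1h3, the LXRα gene, had -0.97 and 1.28 (-2.25 ± 0.19, edgeR adjusted p = 0.00024).

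**Figure D5:**
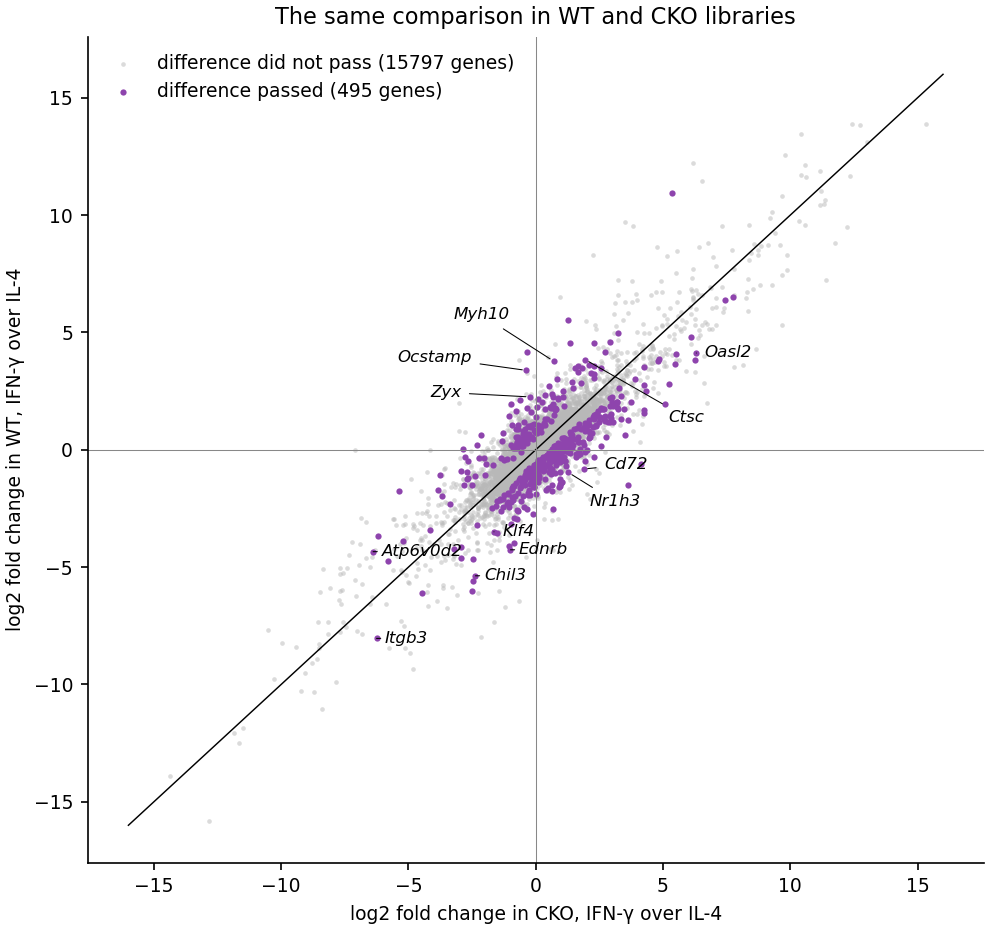
The log2 fold change, IFN-γ over IL-4, of each of the 16292 genes in WT (y axis) against the libraries labelled CKO (x axis), with the line of equality. Purple points are the 495 genes whose difference between genotypes passed the test and grey points the rest. Ocstamp, Myh10 and Zyx lie above the line, and Ednrb, Chil3, Cd72 and Nr1h3 below it.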

How the data were processed

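The authors deposited 1 table of read counts per gene for 12 libraries, made with an RNA Exome kit per the labels' protocols. The submitters' processing notes name HTSeq 0.6.1, TopHat2 2.0.13, CASAVA 1.8.2 and Picard 1.97 as tools and the builds mm10 and GRCh38 without their roles. No source used here gives the annotation release or the strand setting, so overlapping and antisense genes may share reads.

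Of 48440 genes 22932 had no count, and 16292 passed edgeR's filter over the 6 groups. One edgeR 4.0.16 quasi-likelihood fit (R 4.3.3, TMM, robust, limma 3.58.1) of 6 group means over all 12 libraries, with 6 residual degrees of freedom, gave each contrast. The shared spread thus includes untreated and CKO libraries. Adjusted p-values are Benjamini-Hochberg over all 16292 genes. The SE is approximate, from dividing the log2 fold change by the root of the F statistic. Total counts were 24668799 and 28826018 after IFN-γ and 21287725 and 29842151 after IL-4. The scripts were tested on simulated data.

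A floor of 3 counts over a group was used for folds against no count. Positions come from GENCODE M21 (GRCm38), matched by versioned identifier for 40606 genes. Genes without a match carry no position here. A few genes chosen by the rule for named genes are not reported here.

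Named genes were, among called genes whose groups did not overlap and whose mean log2 CPM reached 3, the 12 largest differences each way, up to 3 members each way per list by smallest adjusted p, all defining genes, the 5 highest mean CPM each way and, for the genotypes, the 6 largest differences each way. List members that did not pass (Ifngr1, Jak1, Stat6, Isg20, Trim25, Ifitm2, Calr, Canx), Gm42418 and the runs of neighbouring genes were chosen after their values were seen. The comparison, members and lists were chosen with earlier results of these data known. Alternatives were DESeq2 1.42.0, its size factors, other filters, a 2-fold rule, other sets of libraries in the fit, a replicate block and leaving out each library.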

Additional observations from a re-analysis of the deposited data

Results flagged for a closer look

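For 46 genes named by the rule the difference between IFN-γ and IL-4 was not the same in WT as in the libraries labelled CKO, by edgeR's test of that difference (adjusted p under 0.05). Values are given for 45 of them and are the WT log2 fold change minus the CKO one. The rule also took in the largest differences between genotypes each way, so some of the 46 were named for the difference tested here. Over all 16292 genes the same test called 495 (3.04%). Because of how they were named, the 46 cannot be read against that share as a rate. Of the 46 calls, 21 held in every setting that tested them other than a 2-fold rule. What CKO deletes is not in the labels, and the cause was not tested.

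Each call was repeated with each treated library left out, and the edgeR adjusted p-values given for lost calls are the highest of those fits.

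Among genes higher after IL-4 in WT, the value was negative for Ednrb (-3.27), Chil3 (-3.00), Cd72 (-2.70), Nr1h3 (-2.25), Klf4 (-1.86), Itgb3 (-1.79), Lipn (-1.62), Igf1 (-1.15), Ctsl (-1.14), Irf4 (-1.02), Ncf4 (-0.97), Ccl9 (-0.76), Sgms2 (-2.21), Clec4d (-1.34) and Gch1 (-1.07), so that WT lay further towards IL-4 than CKO did. Itgb3, Irf4, Ccl9 and Gch1 lost their calls (edgeR adjusted p from 0.0731 for Gch1 to 0.195 for Irf4) and the other 11 kept them. Of the genes with a negative value, Cd72 (1.88), Nr1h3 (1.28), Sgms2 (0.96), Clec4d (0.55) and Gch1 (0.51) were called higher after IFN-γ in CKO. In brackets are their CKO log2 fold changes. The value was positive, again among genes higher after IL-4 in WT, for Mrc1 (0.74), Fn1 (1.06), Egr2 (1.34), Slc7a2 (1.70), Atp6v0d2 (2.05), Ccl22 (2.52), Pdcd1lg2 (3.61) and Ephx1 (2.01), where the gap was wider in CKO. Of these 8, Slc7a2 and Ephx1 kept their calls, and the others lost them (edgeR adjusted p from 0.0634 for Pdcd1lg2 to 0.241 for Egr2).

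Among genes higher after IFN-γ in WT, the interferon pathway and antiviral genes Ddx60 (-2.68), Oasl2 (-2.19), Isg15 (-1.29), Ifit2 (-1.23), Igtp (-1.07), Irf7 (-1.01) and Psmb8 (-0.64) had negative values, as did the complement genes C3 (-1.50) and C1ra (-1.05). Itgb7 (-1.42) and Il2rg (-1.18) were negative as well. Of the interferon pathway and antiviral genes given, Oasl2 alone kept its call, and the others lost it (edgeR adjusted p from 0.0508 for Igtp to 0.138 for Psmb8). C3 and Itgb7 kept theirs, while C1ra (edgeR adjusted p = 0.243) and Il2rg (edgeR adjusted p = 0.0946) did not.

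The other positive values belonged to Ocstamp (3.75), Myh10 (3.08), Zyx (2.48), Tlr9 (2.28), Itga1 (2.06), Ctsc (1.90), Itgal (1.46), Ccr2 (1.16), Axl (0.92), Creld2 (0.90) and Pfkp (0.77). Creld2 was called in opposite directions in the genotypes, at a log2 fold change of 0.47 in WT and -0.44 in CKO. Tlr9, Itgal, Ccr2, Axl, Creld2 and Pfkp lost their calls (edgeR adjusted p from 0.0948 for Itgal to 0.202 for Axl).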

How the results depend on the processing

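In the settings run, none of the named genes changed direction. Counts of genes were compared by size only, so no change of direction could be seen in them. Of 165 genes called in WT and named by the rule, 143 kept their call in every setting that tested them other than the 2-fold rule. Pooled over settings, 605 of 702 counts of list members stayed within 1.5 times. Of the 54 list counts behind them, 30 moved further than that in at least 1 setting, the 2-fold rule included. In WT, 4562 calls were 4373 with DESeq2, 4569 with its size factors, 5042 without the filter on low counts, 3559 at a mean CPM of at least 5, 4732 with only the groups compared in the fit and 5257 with only WT libraries. Leaving out each of the 4 libraries in turn gave 3052 to 4009, and for genes higher after IL-4 1412 to 1932. With at least 2-fold required, 2097 genes were left, 1148 higher after IFN-γ and 949 after IL-4.

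The difference between genotypes moved more. Its 495 genes were 303 with at least 2-fold required (203 with a negative value), 1220 without the filter (532 positive and 688 negative) and 131 to 422 leaving out each treated library (36 to 114 positive, 95 to 308 negative). Positive values were 236 both with DESeq2 and with only the groups compared. Without untreated CKO library 1, a setting chosen after seeing the data because its RNA shares stood apart, they were 327 of 797 and negative values 470, while WT had 5230 calls (2491 higher after IL-4) and CKO 5621 (2769). In CKO alone, 4877 calls were 2206 with at least 2-fold required (1353 higher after IFN-γ, 853 after IL-4) and 3195 to 4406 leaving out each library, with 1316 to 2048 higher after IL-4.

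With the replicate number within genotype as a block, WT had 5704 calls, CKO 6111 and the difference 1254 (465 positive and 789 negative). The labels give no shared source for equal numbers, and each group has 2 numbers. Deviations of same-numbered libraries correlated positively between all groups of a genotype: in WT at 0.71 (untreated and IFN-γ), 0.24 (untreated and IL-4) and 0.11 (IFN-γ and IL-4), and in CKO at 0.31, 0.52 and 0.50. The pairing is not settled. Depth limits genes under a few counts per library: a fold against no count is a bound. With 2 libraries per group, an exact permutation test of a single gene could not go below p = 0.333.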

Other observations

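Among tested genes with a GENCODE position, runs of at least 4 neighbours that were all called at least 2-fold higher after IFN-γ numbered 25 and held 139 genes, and 5 runs with 30 genes were higher after IL-4. They took in 139 of the 1148 genes at least 2-fold higher after IFN-γ and 30 of the 949 after IL-4, and no comparison with chance was made. These runs were picked out after their values were seen, neighbours can share reads or transcripts, and several runs hold unnamed gene models inside 1 longer gene.

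Families made up much of the IFN-γ runs. The longest, of 10 genes on GRCm38 chromosome 7 (104244457 to 104507849), was the Trim5, Trim12, Trim30 and Trim34 cluster of antiviral ubiquitin ligases, with log2 fold changes from 1.30 to 4.88. Guanylate-binding protein genes formed 1 run of 7 on chromosome 5 (105014150 to 105346472, from 6.92 to 13.84) and 1 of 5 on chromosome 3 (142493978 to 142638008, from 5.87 to 12.56). The Ly6 run on chromosome 15 (74955051 to 75135128) held 7 genes, among them Ly6a, Ly6c1, Ly6c2, Ly6e and Ly6i, from 2.38 to 11.72. The Ifit run on chromosome 19 (34192229 to 34650009) held Ifit1, Ifit2, Ifit3 and Ifit3b, and the Serpina3 run on chromosome 12 (104189517 to 104414329) held 6 genes from 1.73 to 11.89. The complement genes C1qa, C1qb and C1qc stood together with Ephb2 on chromosome 4 (136647539 to 136898803), from 2.16 to 3.43, and C1ra, C1rb, C1rl and C1s1 on chromosome 6 (124493113 to 124581171), from 1.74 to 7.30.

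On the IL-4 side the lectin genes Clec4a2, Clec4a3, Clec4a4 and Clec4b1 formed a run of 4 on chromosome 6 (122952515 to 123143999), from -1.45 to -1.09. Elsewhere on chromosome 6 (128992952 to 129424763) a run of 8 genes that holds the lectins Clec1b, Clec2d, Clec9a and Clec12a and the activation antigen Cd69 lay on the IFN-γ side, from 1.12 to 10.95. Genes of such families resemble each other, and how their reads were shared by the counting is uncertain.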
